A study of Bos taurus with 4 samples.

Results

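The genes described are OVGP1, RARRES1, FGFR2 and 6 genes typical of surface epithelia (EPCAM, MUC1, CLDN4, WFDC2, ESRP1 and PIGR), as measured in granulosa cells of Holstein cows. The genes were picked by symbol from 15215 named genes on the array, with their levels in the pools and their ratios between donors already seen, so these values are given as a description and without a test. The 9 genes have 15 probes, and every probe is reported. Granulosa cells are the somatic cells that line the ovarian follicle and support the oocyte.

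The study asked which transcripts differ between cows whose oocytes mostly become embryos (good donors) and cows whose oocytes mostly do not (poor donors). The design text gives 94 cows of a commercial embryo production facility, all sampled after ovarian stimulation and coasting, a pause in gonadotrophin before follicles are aspirated. Each donor group had 4 RNA pools, and each of 4 two-colour arrays held 1 good-donor and 1 poor-donor pool. On arrays 1 and 2 the good pools (1 and 2) carried Cy5 and the poor pools (5 and 6) Cy3. Arrays 3 and 4 had the dyes exchanged, with poor pools 7 and 8 in Cy5 beside good pools 3 and 4. How many cows entered a pool, and whether pools shared cows, is not stated in the labels, so spreads are between pools. Both groups came from the same protocol: a small-sample RNA kit, 2 rounds of linear amplification and direct coupling of the dyes.

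OVGP1 encodes oviductin, a glycoprotein that the secretory cells of the oviduct release around the egg and early embryo. RARRES1 and FGFR2 are a retinoic acid-responsive membrane protein and a receptor of fibroblast growth factors, whose epithelial and mesenchymal forms are made by splicing. EPCAM, MUC1, CLDN4, WFDC2, ESRP1 and PIGR are all abundant in many simple and secretory epithelia, where they serve cell contact, barrier, splicing and secretion.

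The granulosa markers FSHR, CYP19A1, INHA and AMH were above background in every pool. On the log2 scale of normalised intensity, the receptor gene FSHR had levels of 10.13 to 10.81, the aromatase gene CYP19A1 of 12.62 to 13.56, the inhibin gene INHA of 14.18 to 16.11 and AMH of 9.37 to 10.27. FOXL2, a transcription factor of granulosa cells, was dim at 6.33 to 6.88. Its spot in pool 7, at a raw intensity of 42 against a limit of 49.0, was not above background. The granulosa marker list had a mean level of 11.42 to 11.78 over the pools, and none of its 12 genes had pools 3, 5 and 7 as its 3 lowest. Only 3.36% of 12239 genes on the array had that, so none of 12 is no result about granulosa genes. Pools 3 and 7 were among the 3 lowest in 2 of the 12, with FSHR 1 of them, beside 14.3% of the 12239. Between 64.3% and 72.7% of probes were above background per pool, and repeated control spots on an array had an SD of 0.05 to 0.15 on the log2 scale.

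Within this background, 6 of the 9 genes were lowest in the same 3 pools: good-donor pool 3 and poor-donor pools 5 and 7. They were OVGP1, RARRES1, FGFR2, EPCAM, MUC1 and ESRP1. Of 12239 genes above background in at least 4 of the 8 pools, 411 (3.36%) had pools 3, 5 and 7 as their 3 lowest. A range of at least 1 on the log2 scale was found in 8 of the 9 genes, and 5 of these had pools 3, 5 and 7 lowest, where 10.5% of the 1186 genes with such a range did. CLDN4 and WFDC2 were lowest in pools 3, 7 and 8, and PIGR in pools 3, 6 and 7. All 9 thus had pools 3 and 7 among their 3 lowest, which 14.3% of all 12239 genes had and 25.4% of the genes with a range of at least 1. The pattern chose the genes, so these shares are a setting for the values and not a test. The 3 low pools include both donor groups and both dyes. Pools 3 and 7, the pair that is low in all 9 genes, are the channels of array 3, so that pool and array cannot be told apart for them. Fewer cells of a type in a pool and less RNA per cell cannot be told apart in pooled tissue.

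**Figure D1:**
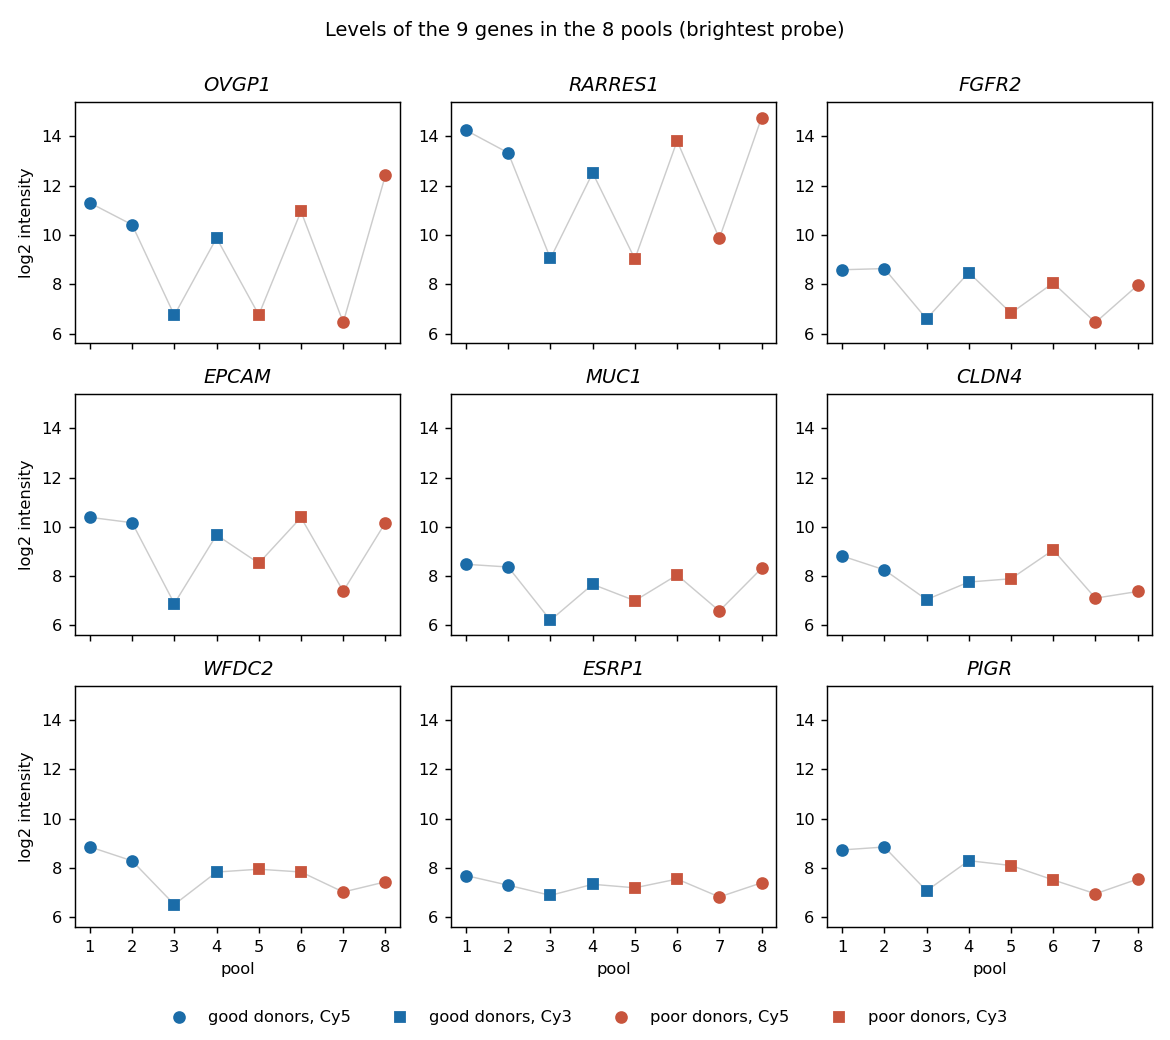
Level of each of the 9 genes (log2 normalised intensity, brightest probe, 1 spot per pool) in pools 1 to 8, coloured by donor group and shaped by dye, with the same axis in each panel. OVGP1 and RARRES1 drop furthest, from highest levels of 12.42 and 14.76 to lowest levels of 6.45 and 9.03, and pools of both donor groups are among the low ones.

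OVGP1, the oviductal secretory gene, had levels of 11.30, 10.41, 6.74 and 9.88 in good pools 1 to 4 and of 6.76, 10.96, 6.45 and 12.42 in poor pools 5 to 8. Pools 3, 5 and 7 lie between 6.45 and 6.76 and the 5 other pools are at least 3.12 higher, so that the donor groups overlap. Its range of 5.97, a 62.7-fold difference between the measured levels of pools 8 and 7, was the widest of the 12239 genes. In pool 7 its spot (raw intensity 48) did not reach the background limit of 49.0, so that its level there is only a bound, while in pools 3 and 5 it stood at 137 and 158 against limits of 106 and 109. The single OVGP1 probe was thus near background in all 3 low pools and between 1098 and 3876 in the others.

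RARRES1, which encodes a putative inhibitor of carboxypeptidases induced by retinoids, had levels of 14.25, 13.33, 9.05 and 12.52 in good pools 1 to 4 and of 9.03, 13.82, 9.86 and 14.76 in poor pools 5 to 8. It was the second widest of the 12239 genes, at 5.73 or 53.0-fold. The next widest genes were ANKRD1 at 5.08, STAR at 4.72, AXL at 4.57 and AGR2 at 4.57, while the median gene had 0.49. In contrast with OVGP1, RARRES1 stayed clearly above background in the 3 low pools, with raw intensities of 645, 674 and 612. The profiles of the 2 genes, each centred on its mean, had a root mean square difference of 0.37 on the log2 scale over the 8 pools. That is a small share of their ranges, and pools 3 and 5 held almost equal levels within each gene (a difference of 0.02 for OVGP1 and -0.02 for RARRES1). The OVGP1 spots were near background in both pools.

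FGFR2, the receptor for several fibroblast growth factors, had levels of 8.59, 8.64, 6.60 and 8.48 in good pools 1 to 4 and of 6.83, 8.05, 6.45 and 7.96 in poor pools 5 to 8. The gap between its low and its other pools was 1.13, within a range of 2.19 that was wider than in 98.6% of the 12239 genes. In pools 3, 5 and 7 its spot was near background, at raw intensities of 126, 163 and 50 against limits of 106, 109 and 49.0. Good pools other than pool 3 were at 8.48 to 8.64, and poor pools 6 and 8, at 8.05 and 7.96, were below all of these. Pool 3 still lies below both of those poor pools, so the donor groups overlap. The second FGFR2 probe was not above background in any pool, with levels of 6.03 to 6.26, and says nothing about the gene.

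Among the genes of cell contact and barrier, EPCAM, an adhesion molecule of epithelial cell surfaces, had levels of 10.39, 10.17, 6.89 and 9.67 in good pools and of 8.52, 10.38, 7.39 and 10.17 in poor pools. Pools 3 and 7 were lowest and pool 5 stood 1.64 above pool 3, at 46.8% of its range, which was 11.3-fold. The second EPCAM probe ran from 6.40 to 6.65. It counted as above background in all 8 pools but by little, for instance at a raw intensity of 50 against a limit of 49.3 in pool 2, so that its narrow range carries little information on the transcript.

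MUC1, the gene of a transmembrane mucin, had levels of 8.48, 8.37, 6.21 and 7.67 in good pools and of 7.00, 8.05, 6.59 and 8.32 in poor pools. Pools 3, 7 and 5 were low in that order, and the spot in pool 3, at a raw intensity of 98, was not above background. CLDN4, which encodes claudin-4 of the tight junction, had 8.82, 8.26, 7.05 and 7.76 in good pools and 7.89, 9.06, 7.11 and 7.38 in poor pools. Its poor pools spanned the whole range of 2.01 apart from the lowest value, and pool 5 was above the good pools 3 and 4.

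Among the secretory and transport genes, WFDC2, which encodes the secreted protein HE4, had levels of 8.86, 8.29, 6.52 and 7.84 in good pools and of 7.95, 7.84, 7.03 and 7.44 in poor pools. PIGR, the receptor that carries polymeric immunoglobulins across epithelia, had 8.73, 8.85, 7.08 and 8.30 in good pools and 8.10, 7.52, 6.96 and 7.55 in poor pools. In both genes pools 1 and 2 are highest and pool 5 is the highest poor pool. The groups overlap in both, in PIGR through pool 3 alone. Their centred profiles were the closest of all pairs among the 9 genes, with a root mean square difference of 0.31. The second PIGR probe had the same 2 lowest pools, with 6.63 in pool 3 and 6.73 in pool 7 and a range of 1.36. The third PIGR probe was above background in only 1 pool.

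ESRP1, which encodes a splicing regulator that selects epithelial exons of FGFR2 and other transcripts, had the narrowest range of the 9 genes. Its levels were 7.69, 7.30, 6.89 and 7.34 in good pools and 7.20, 7.55, 6.83 and 7.40 in poor pools. Pools 7, 3 and 5 were lowest, with a gap of only 0.10 to the next pool and a range of 0.87 that was wider than in 86.0% of genes. That gap lies within the spread of repeated control spots. The second ESRP1 probe was above background in 6 pools with a range of 0.23, and the third in none.

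**Figure D2:**
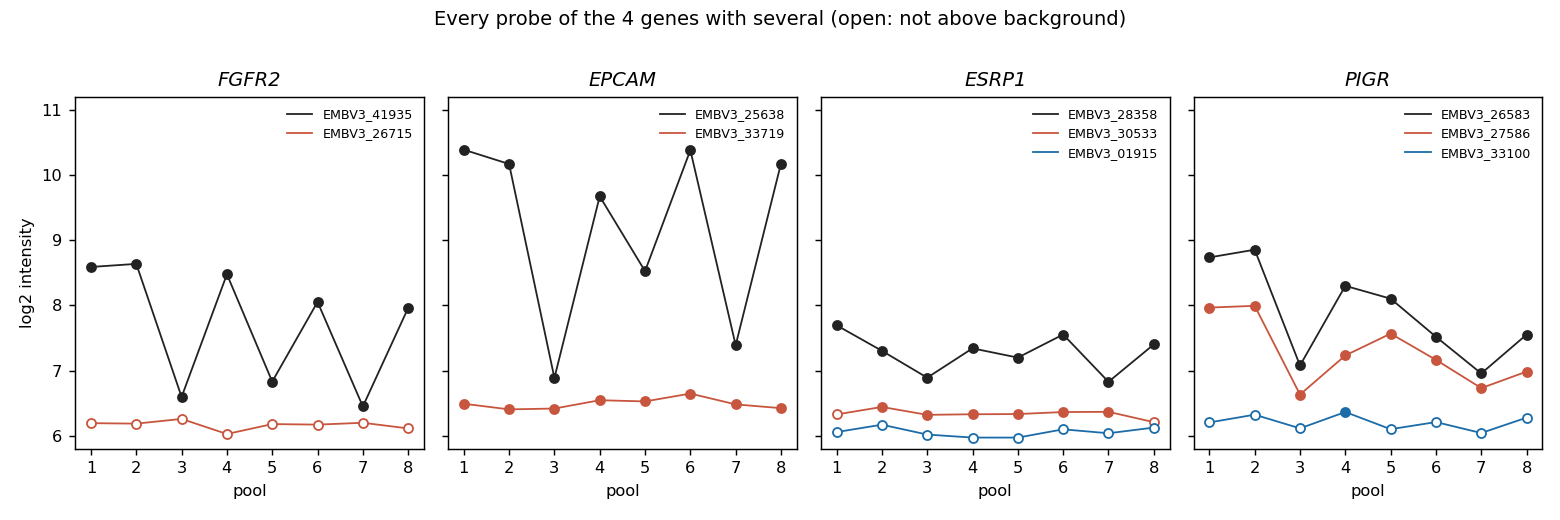
Level (log2 normalised intensity) in pools 1 to 8 for each probe of the 4 genes with more than 1 probe; filled points are above background and open points are not. The dips in pools 3 and 7 are seen in 1 probe of FGFR2, EPCAM and ESRP1 and in 2 probes of PIGR, while the second EPCAM probe stays between 6.40 and 6.65.

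The 9 genes differed in how low the measured level of pool 5 was, compared with pool 3 of the same dye. In OVGP1, RARRES1 and FGFR2, pool 5 exceeded pool 3 by 0.02, -0.02 and 0.23, which is at most 10.7% of the range. In the other genes it did so by 0.31 in ESRP1, 0.85 in CLDN4, 1.02 in PIGR, 1.43 in WFDC2 and 1.64 in EPCAM, or 35.5% to 61.3% of the range. The measured difference of 0.79 in MUC1 is no exact value, since its spot in pool 3 was not above background. OVGP1 (raw intensities of 137 and 158) and FGFR2 (126 and 163) were near the limits of 106 and 109 in pools 3 and 5. The offset of the background correction narrows differences there, so their small differences say little on how low pool 5 was. The genes with the largest share, WFDC2 and PIGR, also had pool 5 as their highest poor pool. Within the Cy3 channel alone, 6 of the 9 genes had pools 3 and 5 as the lowest pair, as did 16.7% of the 12239 genes. Within Cy5, pool 7 was lowest in all 9, as it was in 28% of the 12239 genes.

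The 4 good and 4 poor pools were free of overlap in 0 of the 9, and in 2.32% of the 12239 genes. With so small a share over all genes, 0 of 9 is no result about these genes. The low pools that chose several of them also include both donor groups, so overlap there follows from the choice. Read from the brightest probe, the mean log2 ratio of poor over good was below 0 in all 9. The median of these means was -0.31, where the median of the 10975 kept genes was 0.0008. Poor-donor pools 5 and 7 are among the low pools that chose the genes, and the ratios were already seen. The direction thus follows in part from the choice and is no comparison with all genes. The negative means rest largely on array 1, where all 9 were lower in the poor-donor pool. On each of arrays 2, 3 and 4, only 4 of the 9 were. Array 1 paired pool 1 with pool 5, array 3 paired pools 3 and 7, and arrays 2 and 4 held none of pools 3, 5 and 7.

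OVGP1 had log2 ratios of -4.54, 0.54, -0.29 and 2.55 on the arrays in order, which average to -0.44 ± 2.99 (SD, n = 4 arrays). RARRES1 had -5.22, 0.48, 0.81 and 2.24, which average to -0.42 ± 3.29. Both means are far smaller than their SD. With an array left out, means were refitted with a dye term, which weighs both dye orientations equally. They are not plain means of the remaining ratios. Refitted without array 1, OVGP1 and RARRES1 were at 0.84 and 1.00. OVGP1 was at 0.27 without array 3, where array 4 alone weighs as much as arrays 1 and 2 together. The sign of the refitted mean also turned without array 1 for EPCAM (0.36), MUC1 (0.09), CLDN4 (0.32) and ESRP1 (0.12).

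FGFR2 and PIGR were the 2 genes with a lower poor-donor pool on all 4 arrays. FGFR2 had -1.76, -0.58, -0.15 and -0.52, with a mean of -0.75 ± 0.70. PIGR had -0.63, -1.34, -0.12 and -0.75, with a mean of -0.71 ± 0.50, and its second probe had -0.34 ± 0.38 with a positive value of 0.10 on array 3. Refitted without array 1 in the same way, the FGFR2 mean was -0.46 and the PIGR mean -0.89. WFDC2 had a mean of -0.31 ± 0.59, which was -0.09 when refitted without array 4 and -0.54 without array 3. EPCAM had a mean of -0.16 ± 1.14, MUC1 of -0.19 ± 0.95, CLDN4 of -0.11 ± 0.73 and ESRP1 of -0.06 ± 0.32. Each of these 5 means lies within 1 SD of 0. The second EPCAM probe, little above background, had a mean of the other sign, 0.05 ± 0.15.

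**Figure D3:**
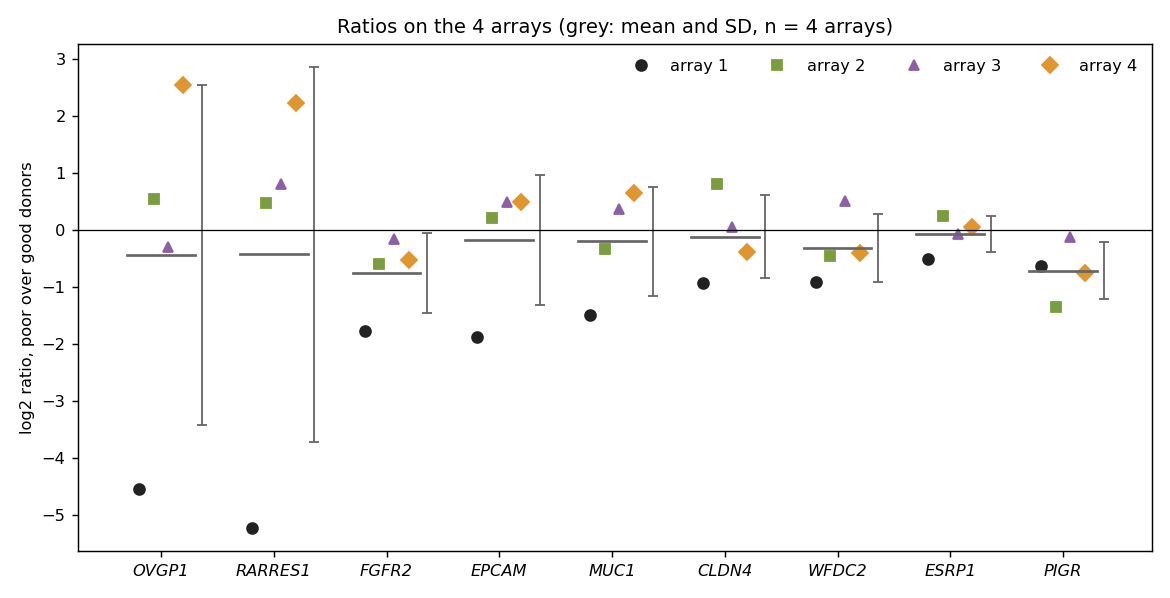
Log2 ratio of poor over good donors for the brightest probe of each gene, with 1 point per array and, in grey, the mean (line) and SD (bar) of the 4 arrays. Array 1 is the lowest point of every gene except PIGR, reaching -4.54 in OVGP1 and -5.22 in RARRES1, and FGFR2 and PIGR have all 4 points below 0.

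The genes with profiles most like those of OVGP1, RARRES1 and FGFR2 were found among 12230 other genes by the root mean square difference of centred log2 levels over the 8 pools. For OVGP1 they were ENPP3 (0.82), CAPSL (0.83), ROPN1L (0.91), ROPN1 (0.97), DNAH9 (0.99) and CCDC65 (1.10). For RARRES1 they were CAPSL (0.85), ENPP3 (0.86), ROPN1L (0.91), DNAH9 (0.94), ROPN1 (0.98) and CFAP299 (1.14). DNAH9 encodes a dynein heavy chain of motile cilia, ROPN1L and CCDC65 other proteins of the ciliary axoneme, and ENPP3 an ectonucleotide pyrophosphatase.

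DNAH9 had levels of 10.37, 9.52, 6.49 and 10.27 in good pools and of 6.56, 10.36, 6.58 and 9.41 in poor pools. ROPN1L had 9.83, 9.18, 6.86 and 9.18 in good pools and 6.56, 10.03, 6.65 and 9.69 in poor pools. Both sat near the lowest intensities of the arrays in pools 3, 5 and 7, as OVGP1 did. On array 1 the ratios of the 7 genes named for these 2 leads ran from -3.81 in DNAH9 to -2.62 in CCDC65.

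For FGFR2 the nearest genes were MME (0.23), TPPP3 (0.25), CCDC88C (0.28), LMO2 (0.31), DNAAF6 (0.33) and RGS22 (0.33). MME, the gene of the membrane peptidase neprilysin, had 8.07, 7.87, 6.23 and 7.93 in good pools and 6.22, 7.91, 6.27 and 7.85 in poor pools. LMO2, a transcriptional adaptor, had 9.89, 9.25, 7.85 and 9.33 in good pools and 8.18, 9.74, 7.70 and 9.34 in poor pools. DNAAF6 encodes a dynein assembly factor of motile cilia. Because likeness over the 8 pools chose these genes, their low levels in pools 3, 5 and 7 follow from the choice. ROPN1, CFAP299 and MME were above background in 5 of the 8 pools, TPPP3 in 6 and ENPP3 in 7, so that their lowest levels are bounds. With each gene divided by its SD and only the 1178 genes with a range of at least 1 as candidates, a choice made after seeing the data, 2 of the 6 genes were retained for OVGP1, 4 for RARRES1 and 3 for FGFR2.

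**Figure D4:**
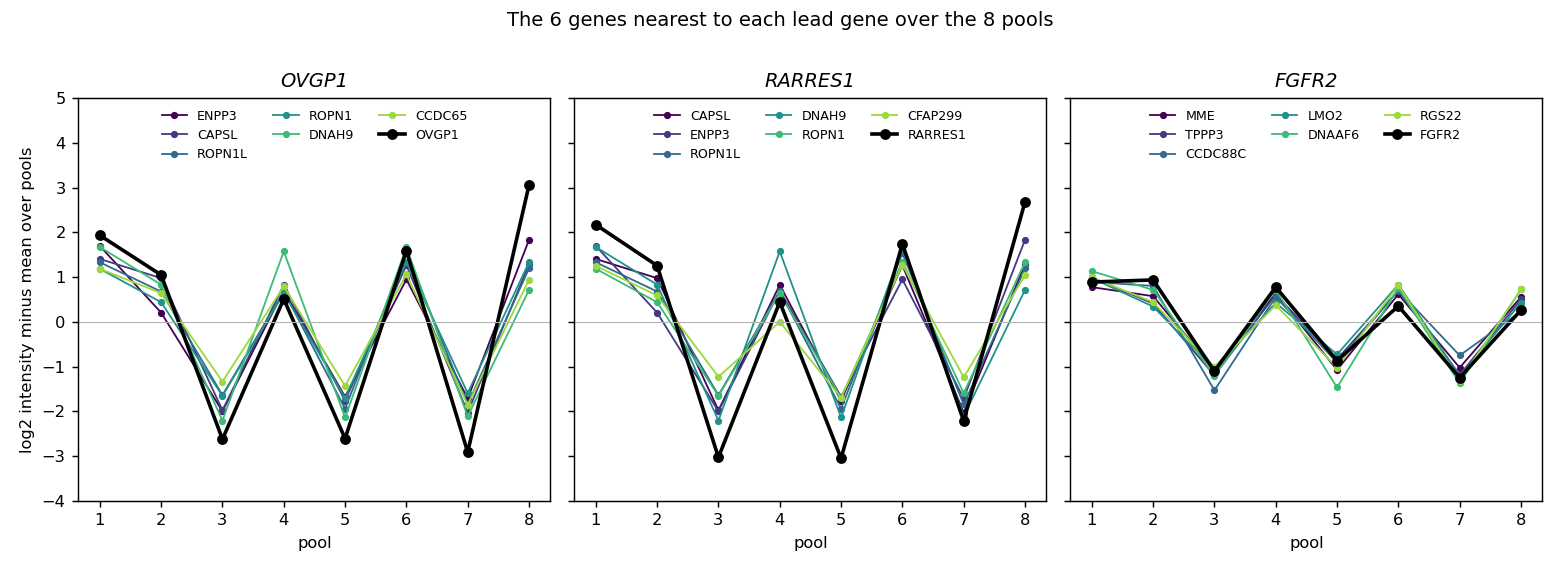
Centred levels (log2 normalised intensity minus the gene's mean over the pools) of OVGP1, RARRES1 and FGFR2 in black and of the 6 genes nearest to each in colour, over pools 1 to 8. The lead and its neighbours are below their mean in pools 3, 5 and 7, and OVGP1 and RARRES1 drop further there than their neighbours.

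Markers of other cell types were read beside this pattern. Of 13 kept motile cilia genes, 8 had pools 3, 5 and 7 as their 3 lowest, beside 3.36% of the 12239 genes. The mean level of the 13 was 6.81 to 6.83 in those pools against 7.38 to 7.70 in the others. The filter of the fit dropped the rest of the 20 cilia genes with a probe, most of them also lowest in these pools. It is stricter than that of the 12239, so the share is a setting and was not tested. The tektin gene TEKT1 had levels of 7.99, 7.40, 6.36 and 7.82 in good pools and of 6.22, 7.77, 6.35 and 7.92 in poor pools, with its spots in pools 5 and 7 not above background. The calcyphosine gene CAPS had a range of 1.71, ENKUR of 1.57 and RSPH4A, a radial spoke gene, of 1.37, all lowest in the same 3 pools. The dynein gene DNAI1 was lowest in these pools too, within a range of 6.33 to 6.96. The spots of ENKUR in pool 3, RSPH4A in pool 5 and DNAI1 in pool 7 were not above background, so their lowest levels are bounds. FOXJ1, the master regulator of motile cilia, ran from 6.36 to 6.54, close to background in every pool. The part of such cells in the levels of OVGP1, RARRES1 and FGFR2 was not tested. None of the 4 keratins of simple epithelia had pools 3, 5 and 7 as its 3 lowest. Beside 3.36% of the 12239 genes, that is no result about so few genes. KRT7 and KRT19 were lowest in pools 3, 7 and 8, as CLDN4 and WFDC2 were, with KRT7 at 7.14 in pool 3 and 7.51 in pool 7 against 7.88 to 8.81 elsewhere. KRT7, KRT8 and KRT18 each had their lowest level in pool 3. KRT8 and KRT18 were highest in pool 7, at 15.47 and 12.79, against 11.08 to 13.96 and 8.48 to 10.02 in the other pools, and KRT19 ran from 12.67 to 14.16.

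Of the remaining cell type lists, that of mesothelium and ovarian surface had 5 kept genes and a mean of 7.47 to 8.39 over the pools, lowest in pools 7 and 3, with 1 gene lowest in pools 3, 5 and 7 (WT1). None of the 8 kept genes of theca and stroma, the 3 of endothelium, the 7 of leukocytes, the 2 of oocytes or the 2 of red cells had pools 3, 5 and 7 as its 3 lowest. With 3.36% of the 12239 genes so placed, counts of 0 or 1 in lists so short are no result about these cell types. The means of the lists from theca to red cells ran, in that order, from 8.81 to 9.96, 6.44 to 6.92, 7.06 to 7.74, 6.52 to 6.68 and 7.05 to 8.47. The endothelial and theca means were lowest in pool 3, and the leukocyte and red cell means were among their highest there. The endothelial dip was that of KDR, at 6.31 in pool 3, while CDH5 was at 6.55 there within 6.36 to 6.60. In the red cell list HBB was highest in pool 3, at 9.51, while HBA was at 7.29 there and highest in pool 6, at 9.17. Whether such cells contribute to the 9 genes was not tested.

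Genes related to the 9 by role were counted in 5 lists that were chosen with earlier results of these data known: 106 genes, of which 95 had a named probe and 72 passed the filter. In the limma fit, 0 of 26181 probes passed an adjusted p of 0.05 (0%), with a smallest adjusted p of 0.822 and 1560 probes at an unadjusted p under 0.05. So none of the 72 was called, and 33 were higher and 39 lower in poor donors with a median log2 ratio of -0.01. Without adjustment, 5 of the 72 had a p under 0.05. Pools 3, 5 and 7 were the 3 lowest in 4 of the 72 (5.56%, beside 3.36% of the 12239 genes), namely EMX2, DSP, MUC16 and ALDH1A1. MUC16 counts by a near tie, with 6.594 in pool 5 and 6.596 in pool 1, and its spot in pool 7 was not above background. Pools 3 and 7 were among the 3 lowest in 23 of the 72 (31.9%, beside 14.3%). The 72 passed the filter of the fit, above background in every pool of either donor group, which is stricter than that of the 12239 genes. It drops genes that fall below background in pools of both groups, so these shares come from unlike sets. The lists were not tested for this.

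Of the 11 epithelial transcription and splicing factors kept, 4 were higher and 7 lower in poor donors. EMX2, a homeobox factor of the reproductive tract, had levels of 9.65, 9.40, 8.07 and 9.14 in good pools and of 8.82, 9.47, 8.32 and 9.17 in poor pools, so that pool 3 and pool 7 were lowest. TFAP2A, an AP-2 factor, had 7.82, 7.98, 6.47 and 6.89 against 7.75, 7.40, 6.66 and 6.71, with pool 5 among the high pools as in WFDC2 and PIGR. The other genes named by the rule were GRHL1, a grainyhead factor, at a log2 ratio of -0.20 ± 0.11, ELF5 at -0.30 ± 0.31, PAX8 at 0.15 ± 0.24 and TFAP2C at 0.16 ± 0.47, with adjusted p from limma between 0.822 and 0.925. GRHL2 and ESRP2, a paralog of ESRP1, were near the lower end of the scale in all pools, at 6.59 to 6.75 and 6.49 to 6.61.

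Of the 18 adhesion, polarity and surface protease genes kept, 8 were higher and 10 lower. DSP, the gene of desmoplakin in desmosomes, had levels of 8.41, 8.55, 6.29 and 7.46 in good pools and of 7.02, 9.27, 6.54 and 8.51 in poor pools. It resembled EPCAM in that pools 3 and 7 were lowest and pool 5 stood above both. The DSP spot in pool 3 was not above background. ERBB3, a receptor tyrosine kinase, had 9.75, 8.87, 7.63 and 8.82 against 9.05, 9.35, 7.67 and 8.84, with pool 5 among the high pools. PERP, a desmosome protein, took the reverse course with its highest levels in pools 4 and 3, at 10.40 and 10.33. PRSS8, LSR and MAL2 had log2 ratios of -0.18 ± 0.26, -0.21 ± 0.16 and 0.36 ± 0.36. CDH1, the gene of E-cadherin, was above background in only 2 pools.

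Of the 16 mucosal secretion and defence genes kept, 7 were higher and 9 lower. This list had the widest levels of the 5, with 9 genes at a range of at least 1, of which 7 were lowest in pool 3. Among genes with such a range, pool 3 was also lowest in 4 of 5 of theca and stroma and in 0 of 5 granulosa markers. The share over all genes was not taken, so the count is a description only. AGR2, a protein disulphide isomerase of mucin-secreting cells, had levels of 11.09, 9.95, 6.52 and 9.07 in good pools and of 9.68, 8.58, 7.27 and 7.95 in poor pools. DMBT1, a scavenger receptor of mucosal fluids, had 12.86, 11.12, 8.43 and 11.19 against 10.89, 9.42, 8.82 and 9.70, and a log2 ratio of -1.19 ± 1.07 (limma adjusted p = 0.822). LTF, the gene of lactoferrin, had 13.73, 13.23, 9.42 and 12.38 against 12.48, 11.45, 11.85 and 11.47. In each of these 3 genes pool 5 was the highest poor pool and pool 3 the lowest of all, as in WFDC2 but not in OVGP1 or RARRES1. SLPI, a protease inhibitor of mucosal fluid, had a log2 ratio of -0.27 ± 0.21.

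Of the 12 FGF pathway genes kept, 8 were higher and 4 lower, and none followed FGFR2 in being lowest in pools 3, 5 and 7. With 3.36% of the 12239 genes so placed, none of 12 is no result about the pathway. FGF7 and FGF10, the ligands of the epithelial form of FGFR2, were not above background in any pool. FGFR1, a second receptor, ran from 6.61 to 7.53 with its highest level in pool 7, where FGFR2 was lowest. The feedback gene SPRY2 ran from 9.17 to 10.44, and DUSP6, another feedback gene, from 7.17 to 8.06. Their log2 ratios were 0.04 ± 0.67 and 0.12 ± 0.34, beside 0.17 ± 0.15 for SPRED1 and 0.13 ± 0.26 for the target gene ETV5.

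Of the 15 retinoid genes kept, 6 were higher and 9 lower. ALDH1A1, an enzyme that makes retinoic acid, had levels of 7.70, 8.17, 6.02 and 8.30 in good pools and of 6.83, 8.36, 6.72 and 8.04 in poor pools. Its spot in pool 3 was not above background, and it shared the 3 low pools of RARRES1. The other named genes did not: the retinoic acid receptor gene RARA had its highest level in pool 3, at 8.81 against 7.66 to 8.22 elsewhere. STRA6, the gene of a receptor that takes up retinol, was bright in all pools at 14.43 to 15.60. RARRES2, which encodes the secreted protein chemerin, ran from 8.56 to 9.10 with a log2 ratio of -0.30 ± 0.15 (limma adjusted p = 0.822), and RARA had -0.53 ± 0.43.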

How the data were processed

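Granulosa cell RNA of 8 pools was measured on 4 two-colour arrays, which were areas of a single slide. Spot and local background intensity were deposited per channel without normalization, per the file headers. The authors deposited a log2 ratio per probe as well. How it was normalised is not given in the sources used. Compared with the scanner values (correlations of 0.971 to 0.980) its direction was poor over good, and it served as an alternative.

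Median spot intensity was corrected with normexp (offset 50) and normalised by loess (span 0.3) within arrays with controls at weight 0, in limma 3.58.1 under R 4.3.3. Levels per pool followed Aquantile normalization between arrays. A probe was above background where it exceeded the mean of the 153 negative controls by 2 SD, and 26181 of 43794 probes (59.8%) that did so in every pool of either donor group were tested. Of the 15 probes of the 9 genes, 11 passed, at least 1 for each gene. limma fitted the poor over good ratio with a dye term on the 4 arrays, two-sided with Benjamini-Hochberg adjustment, so p-values reflect only how far arrays with equal dye orientation differ. The functions were tested on simulated data.

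The platform annotation names 21790 probes, with 1687 symbols updated through a synonym. A gene was read from its brightest probe, and the files hold no probe sequences. The members and lists were chosen with earlier results of these data known. Named are all probes of the members, the 6 genes nearest to each of OVGP1, RARRES1 and FGFR2, up to 3 genes of smallest p and 3 of widest range per related list, and fixed markers. MUC16, TEKT1, CAPS, ENKUR, RSPH4A, KRT7, GRHL2, ESRP2, CDH1, FGF7, FGF10, WT1, KDR, CDH5, HBB, HBA and the widest genes fall outside that rule and were chosen after their values were seen. Alternatives changed the background correction, spot summary, normalization, filter, probe choice, dye term and the arrays used.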

Additional observations from a re-analysis of the deposited data

Results flagged for a closer look

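A search covered the kept probes of the 9 genes, their nearest genes and the genes named by the rule from the related lists. Other markers of cell types were not searched. The values were ratios over the arrays and, for the 9 genes, levels over the pools of a donor group. In all, 71 sets of 4 values were searched for a value whose gap to the nearest other exceeds Dixon's 95% limit. Such a gap was found in 9 of them. Chance flags about 1 in 20 independent sets, but these genes were chosen by these same values or by likeness to them, so the count is a description and no comparison with chance. FGFR2 in pool 3 had a level of 6.60 where the other good-donor pools had 8.48 to 8.64. On array 1 the log2 ratio of poor over good was -1.86 for EPCAM, against 0.21 to 0.50 on the other arrays. Among the nearest genes, which were picked for a profile like that of their lead, array 1 stood apart for 3: CAPSL at -3.16 against -0.05 to 0.46, MME at -1.85 against -0.08 to 0.04 (its spots were above background in 5 pools only), and DNAAF6 at -2.60 against -0.17 to 0.04. LSR had -0.45 on array 1 against -0.15 to -0.12. PAX8 had 0.50 on array 3 against -0.01 to 0.06, TFAP2C 0.86 on array 2 against -0.11 to -0.03, and AGR2 0.75 on array 3 against -1.41 to -1.12. Pool 5, in Cy3 on array 1, is low in EPCAM, CAPSL, MME and DNAAF6. The cause of these values was not tested.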

How the results depend on the processing

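The count of 0 probes past the adjusted threshold held under every alternative run, with smallest adjusted p from 0.45 to 1 and between 1031 and 2477 probes at an unadjusted p under 0.05. The number of the 9 genes lowest in pools 3, 5 and 7 was 6 under every level setting except channels centred on their median without loess, where it was 5. The mean log2 ratio kept its negative sign in all 9 genes under the other background corrections, spot summary, median centring, the mean over probes and the authors' deposited log2 ratios. With an array left out it was refitted with the dye term, which weighs both dye orientations equally and gives no plain mean of the remaining ratios. So refitted, it changed sign without array 1 in OVGP1, RARRES1, EPCAM, MUC1, CLDN4 and ESRP1, and without array 3 in OVGP1. These refits, leaving out 1 array at a time, gave -1.71 to 0.84 for OVGP1, -1.85 to 1.00 for RARRES1, -1.04 to -0.46 for FGFR2, -0.54 to -0.09 for WFDC2 and -0.89 to -0.53 for PIGR. Ranges depend more on the setting. FGFR2 spanned 1.28 with mean pixel intensity and 1.09 averaged over its probes, one of which was never above background, and EPCAM spanned 1.86 over its probes. With mean pixel intensity MUC1 spanned 1.17, WFDC2 1.15, PIGR 1.16 and ESRP1 0.35. The place of OVGP1 by range lay between 1 and 3 and that of RARRES1 between 2 and 4, under settings added after seeing the data. Signal close to background limits the low levels, since the offset narrows differences there.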
